A study of Mus musculus with 24 samples.

Results

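The loci of 9 genes of the cortical interneuron lineage were examined in ChIP-seq peak lists of 3 transcriptional regulators (TRs) in developing mouse cortex. The genes were Dlx1, Dlx2, Dlx5, Dlx6, Lhx6, Nkx2-1, Gsx2, Gad1, and Gad2. A peak was taken as a member when it overlapped the body of one of these genes (GENCODE vM21 on GRCm38) or the 50 kb on either side of it. Dlx1 and Dlx2 lie next to each other, as do Dlx5 and Dlx6, so the 9 windows formed 7 regions with a joint length of 888.7 kb. These held 258 of the 314954 peaks on the main chromosomes in all 6 lists. Of the 258 peaks, 123 overlapped the 2000 bp upstream of a transcription start site (TSS) of any gene and were counted as promoter peaks, 52 of the others lay in the body of a member (genic), and 83 lay in the flanks.

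ChIP-seq pulls down the DNA that a protein sits on, by means of an antibody, and a peak is a place where reads pile up above input chromatin. The groups were wild-type (WT) cortex at the embryonic stages E15.5 and E18.5, each with antibodies against ARID1B, FOXP1, and TCF7L2. There were 24 libraries, 12 of ChIP and 12 of input, with 2 replicates for each TR, stage, and kind. The labels call the target of the last antibody TCF4, and the antibody list of the methods names TCF7L2, which is used here. ARID1B belongs to the BAF complex, which remodels chromatin, FOXP1 is a forkhead transcription factor, and TCF7L2 is a DNA-binding effector of WNT signaling. There was 1 list per TR and stage. GEO keeps it with the sample of replicate 1, while the methods describe calling on merged replicates, and whether it holds 1 replicate or both was not tested. Each value below is therefore a single value without replicate error, no difference between lists could be tested, and none is given a p-value. The strength of a peak is its fold enrichment, the ratio of summit reads to background reads, with both on the scale of the smaller library and with a pseudocount of 1 added to each. The pseudocount lowers the ratio more where the background is low, and the background was 2.81 reads for FOXP1 at E18.5 and between 6.13 and 8.63 in the other lists. Its 95% interval is an exact Poisson interval on the summit reads and covers counting error only.

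Cortical interneurons arise outside the cortex, in the ganglionic eminences of the ventral telencephalon, and migrate into it, so in dissected cortex they are a minority among glutamatergic neurons and progenitors. GSX2 and NKX2-1 pattern the progenitors of the lateral and the medial ganglionic eminence. DLX1, DLX2, DLX5, and DLX6 are homeodomain factors that drive differentiation and migration of GABAergic cells, and LHX6 acts downstream of NKX2-1 in interneurons of medial origin. Gad1 and Gad2 encode the enzymes that make GABA. The DNA between the Dlx genes of each pair is known to hold enhancers of both genes. The cortex was measured as bulk tissue, and a few cells with strong binding cannot be told apart from many cells with weak binding in any value below.

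The 100 bp on either side of selected summits are printed to show the DNA that carried the peaks. For each region the locus with peaks in most lists was taken, and within it the highest summit. Windows touching a coding exon or an untranslated region, and loci at promoters of other protein-coding genes, were passed over. Loci upstream of Dlx2, between Dlx5 and Dlx6, and in an intron of Chic2 were added after their values were seen, as further loci away from promoters with peaks in at least 4 lists. The bases are those of the plus strand of GRCm38. Capitals mark exact matches, on either strand, to TGTTTAC (forkhead), ATCAAAG (TCF/LEF), CATCTG or CAGCTG (E-boxes), or TAATTA (homeodomain core).
Dlx1/Dlx2 intergenic, chr2:71536221-71536421: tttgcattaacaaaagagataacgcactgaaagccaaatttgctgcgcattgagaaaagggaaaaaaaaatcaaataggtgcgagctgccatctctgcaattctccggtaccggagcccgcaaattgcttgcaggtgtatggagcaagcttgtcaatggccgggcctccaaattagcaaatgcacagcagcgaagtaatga
Dlx2 upstream, chr2:71581099-71581299: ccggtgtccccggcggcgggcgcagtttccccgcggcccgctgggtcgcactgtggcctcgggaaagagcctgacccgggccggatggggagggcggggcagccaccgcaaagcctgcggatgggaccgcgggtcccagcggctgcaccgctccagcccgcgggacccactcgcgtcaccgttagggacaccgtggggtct
Dlx5/Dlx6 intergenic, chr6:6869520-6869720: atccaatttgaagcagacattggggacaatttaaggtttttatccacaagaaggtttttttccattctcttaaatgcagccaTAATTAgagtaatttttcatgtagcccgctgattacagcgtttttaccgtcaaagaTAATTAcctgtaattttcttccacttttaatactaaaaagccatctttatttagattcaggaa
Dlx6 promoter locus, chr6:6863858-6864058: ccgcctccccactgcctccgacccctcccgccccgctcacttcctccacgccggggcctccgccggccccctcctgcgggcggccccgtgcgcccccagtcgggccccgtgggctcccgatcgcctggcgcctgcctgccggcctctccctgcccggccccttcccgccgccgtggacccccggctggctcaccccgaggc
Gsx2 upstream, chr5:75067281-75067481: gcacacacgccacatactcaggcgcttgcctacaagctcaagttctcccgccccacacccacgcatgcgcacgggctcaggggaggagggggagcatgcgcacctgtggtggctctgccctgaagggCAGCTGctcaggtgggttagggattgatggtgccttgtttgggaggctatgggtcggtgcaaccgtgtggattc
Chic2 intron in the Gsx2 region, chr5:75030388-75030588: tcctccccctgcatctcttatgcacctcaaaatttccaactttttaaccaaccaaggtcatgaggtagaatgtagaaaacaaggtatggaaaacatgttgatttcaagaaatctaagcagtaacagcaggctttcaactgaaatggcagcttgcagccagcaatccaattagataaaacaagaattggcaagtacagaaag
Nkx2-1 upstream, chr12:56541099-56541299: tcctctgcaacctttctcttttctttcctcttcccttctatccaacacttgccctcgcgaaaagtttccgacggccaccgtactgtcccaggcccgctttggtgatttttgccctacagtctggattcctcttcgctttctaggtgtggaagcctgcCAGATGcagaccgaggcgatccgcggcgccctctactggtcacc
Lhx6 intron, chr2:36097764-36097964: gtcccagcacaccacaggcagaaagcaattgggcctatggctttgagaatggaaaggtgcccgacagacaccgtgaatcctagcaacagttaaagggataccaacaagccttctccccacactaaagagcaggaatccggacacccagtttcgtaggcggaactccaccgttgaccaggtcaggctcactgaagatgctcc
Gad1 intron, chr2:70558210-70558410: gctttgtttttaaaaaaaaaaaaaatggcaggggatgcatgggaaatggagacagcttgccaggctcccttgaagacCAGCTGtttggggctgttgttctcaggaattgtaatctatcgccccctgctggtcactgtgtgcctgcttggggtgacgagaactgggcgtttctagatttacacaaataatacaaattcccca
Gad2 promoter, chr2:22620117-22620317: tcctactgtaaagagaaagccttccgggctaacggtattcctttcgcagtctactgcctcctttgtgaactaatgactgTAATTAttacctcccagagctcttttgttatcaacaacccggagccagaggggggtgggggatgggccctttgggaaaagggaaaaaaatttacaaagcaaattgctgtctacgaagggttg

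The Dlx1/Dlx2 intergenic window lies in an intron of the antisense transcript Dlx1as, and its locus had a peak in all 6 lists. So did those of the Dlx2 upstream window, 34.4 kb from the nearest TSS of Dlx2, of the Gsx2 upstream window, 8.2 kb from the TSS, and of the Gad1 intron window, 3.7 kb upstream of the nearest internal TSS. The Dlx5/Dlx6 intergenic window is in an exon of the noncoding antisense transcript Dlx6os1. It was the only one of the 10 windows with 2 matches to the homeodomain core, and the Gad2 promoter window held 1. The Dlx6 promoter locus window is in an intron of Dlx6, 160 bp from its nearest TSS, and 82.1% of its bases were G or C. By contrast, this share was 32.3% in the Dlx5/Dlx6 intergenic window. The Chic2 intron window represents 4 lists and holds none of the words searched. The Lhx6 window represents 1 list only, and the Nkx2-1 window 2 lists. No window held the forkhead or the TCF/LEF word.

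The 7 regions were very unequal. The Dlx1/Dlx2 region held 63 of the 258 peaks, Gad1 held 53, Dlx5/Dlx6 held 51, Gsx2 held 42, Gad2 held 24, Lhx6 held 17, and Nkx2-1 held 8. By list, there were 40 ARID1B, 49 FOXP1, and 44 TCF7L2 peaks at E15.5. The E18.5 lists gave 34, 11, and 80. TCF7L2 at E18.5 gave the most peaks in every region, and FOXP1 at E18.5 gave none at Dlx5/Dlx6 and none at Nkx2-1. The lists differed in depth. The smaller library of each pair of ChIP and input held 26.3 M reads for FOXP1 at E18.5 and between 57.3 M and 80.7 M for the others. The lowest fold enrichment in a list was 3.21 for FOXP1 at E18.5 and between 2.33 and 2.67 for the others.

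The promoters of 6 or 7 of the 9 members were bound in 4 of the lists, near the share of all genes, and at low heights. Counting only peaks within 2000 bp upstream of a member's own TSSs, ARID1B at E15.5 had a peak at 6 of the 9 members, where 58.8% of the 21951 protein-coding genes had one. FOXP1 at E15.5 had one at 7 members, against 61.8% of genes, and TCF7L2 at E15.5 at 6, against 57.3%. At E18.5, ARID1B had one at 7 members, against 57.3% of genes, and TCF7L2 at all 9, against 61.2%. FOXP1 at E18.5 had one at 2 members, Dlx2 and Gad1, against 55.0% of genes. No member lacked an own-promoter peak in every list, whereas 35.9% of genes did. Peaks of all 3 TRs met at the promoters of 6 members at E15.5, namely the 4 Dlx genes, Gad1, and Gad2, against 55.5% of genes. At E18.5 this held for 2 members, against 52.9% of genes. Without the FOXP1 list, ARID1B and TCF7L2 shared 7 member promoters at E18.5, against 56.3% of genes. Dlx2 and Gad1 had a peak in all 6 lists, as did 51.8% of genes.

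The counts of bound members fell more than the share of bound genes when only stronger peaks were kept, in every list that lost peaks. With −log10 p of at least 15, ARID1B, FOXP1, and TCF7L2 had an own-promoter peak at 2, 4, and 1 of the 9 members at E15.5, against 43.1%, 55.0%, and 44.6% of genes. In the E18.5 lists the counts were 2, 0, and 4, against 40.1%, 41.7%, and 50.5%. All 3 TRs then met at 1 member at E15.5 and at 0 at E18.5, against 39.2% and 35.0% of genes. With every list reduced to the 24872 peaks of lowest p-value, the counts were 2, 4, and 5 at E15.5, against 40.4%, 54.7%, and 54.9%. At E18.5 they were 2, 2, and 6, against 39.9%, 55.0%, and 55.7%, and all 3 TRs met at 2 and 1 members, against 39.6% and 39.0%. Dlx1 and Dlx5 were the 2 members with ARID1B at E15.5 in both settings, and Dlx2 and Gad2 those at E18.5.

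**Figure D1:**
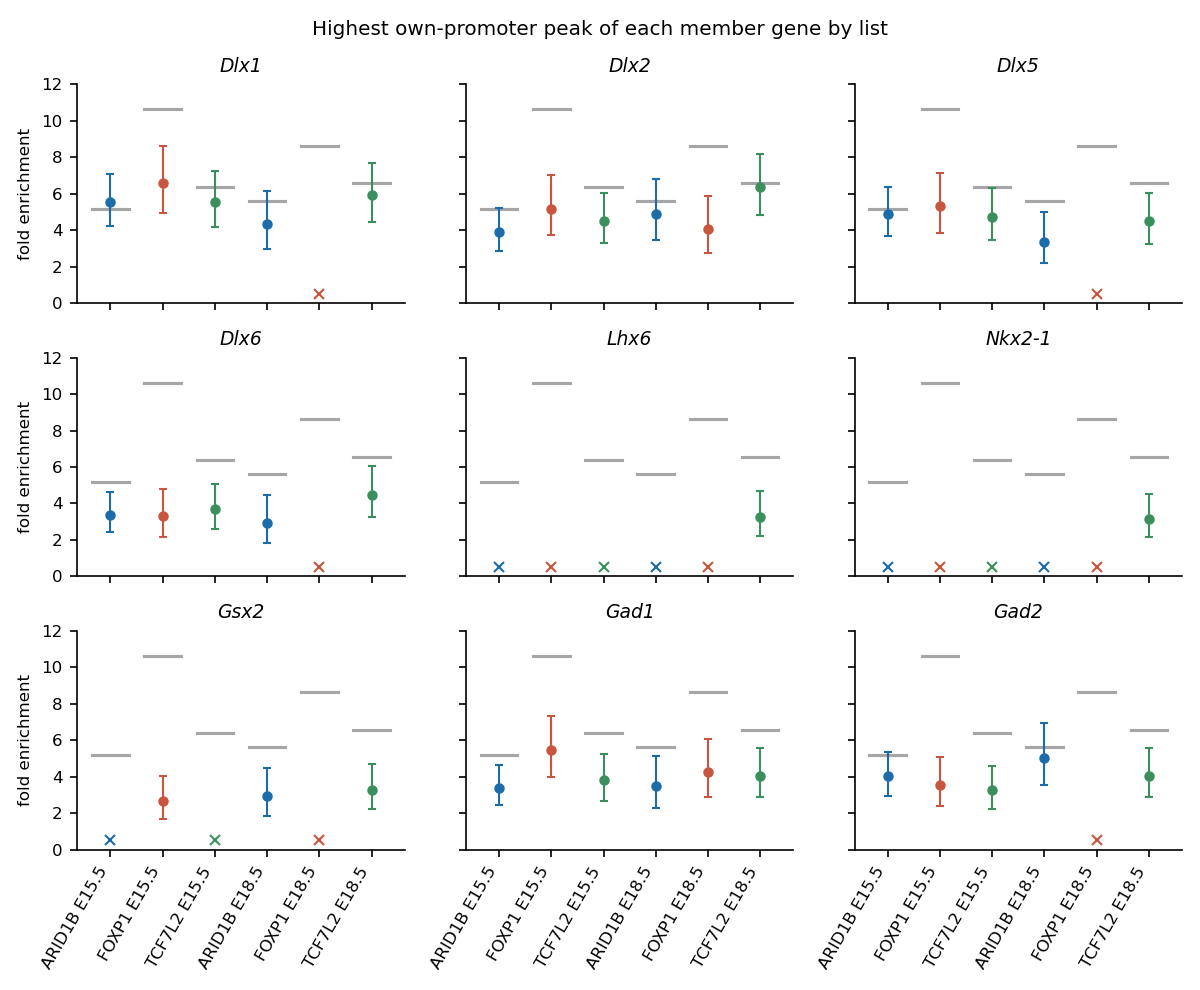
Fold enrichment of the highest own-promoter peak (vertical axis) of each member gene in each of the 6 lists (horizontal axis), with 95% Poisson intervals for counting error only. Crosses near the base mark lists without a peak, and grey lines give the median over all protein-coding genes with a peak in that list. Of the points, only that of Dlx1 for ARID1B at E15.5 lies above its grey line, and Lhx6 and Nkx2-1 have a point for TCF7L2 at E18.5 alone.

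The heights of these promoter peaks were below those of most genes. The median over the bound members at E15.5 was 3.97 (ARID1B), 5.19 (FOXP1), and 4.15 (TCF7L2), where the medians over all bound genes were 5.17, 10.63, and 6.40. At E18.5 the bound members had medians of 3.51, 4.16, and 4.05, and all bound genes of 5.61, 8.65, and 6.57. Member by member, 36 of 37 own-promoter values lay below the median of their list, as the plot of own-promoter peaks shows. The exception was Dlx1 for ARID1B at E15.5.

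Among the Dlx genes, Dlx1 had own-promoter values at E15.5 of 5.53 (ARID1B), 6.58 (FOXP1), and 5.56 (TCF7L2). At E18.5 it had 4.35 for ARID1B, none for FOXP1, and 5.91 for TCF7L2. The value of 6.58 rested on 51 summit reads, with an interval of 4.93 to 8.61, and that of 4.35 on 30 reads, with an interval of 2.98 to 6.15, so the 2 intervals overlap. Its neighbor Dlx2 had a peak in all lists, with 3.93, 5.19, and 4.52 in the E15.5 lists and 4.91, 4.09, and 6.35 in the E18.5 lists, in the order ARID1B, FOXP1, TCF7L2. The highest of these, for TCF7L2 at E18.5, had an interval of 4.84 to 8.19, and the lowest, for ARID1B at E15.5, of 2.87 to 5.25. The values ran from 4.35 to 6.58 in Dlx1 and from 3.93 to 6.35 in Dlx2. Intervals of the same TR at the 2 stages overlapped wherever both had a peak.

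Dlx5 had own-promoter peaks of 4.90, 5.32, and 4.73 at E15.5 for ARID1B, FOXP1, and TCF7L2. At E18.5 it had 3.37 for ARID1B and 4.49 for TCF7L2. Dlx6 had 3.39, 3.29, and 3.68 in the E15.5 lists and 2.95 and 4.49 in the E18.5 lists, where the last value equals that of Dlx5. Neither gene had a FOXP1 peak at E18.5 at its promoter or elsewhere in the region. The highest peak of the Dlx5/Dlx6 region stood at no promoter. It was the FOXP1 peak at E15.5 in the printed Dlx5/Dlx6 intergenic window, with a fold enrichment of 8.99 (interval 7.03 to 11.32, 70 reads). The same locus (chr6:6868913-6870099) had 3.39 for ARID1B at E15.5, 3.79 for ARID1B at E18.5, and 4.05 for TCF7L2 at E18.5. The FOXP1 interval lies above each of these values. TCF7L2 at E15.5 had no peak there, only one beginning next to it at 3.16.

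Between Dlx1 and Dlx2, the locus of the printed intergenic window (chr2:71535918-71537307) was highest for FOXP1 at E18.5, with 6.59 (interval 4.84 to 8.79, 43 reads). FOXP1 at E15.5 had 3.29 there, ARID1B 2.77 and 3.93, and TCF7L2 4.52 and 4.71 at the 2 stages. It was 1 of only 3 places in the Dlx1/Dlx2 region with a FOXP1 peak at E18.5. The others were the Dlx2 promoter and the Dlx2 upstream locus (chr2:71580784-71581704). That upstream locus is intergenic and stood alone, with no other peak beyond the Dlx2 promoter on that side. Its values at E15.5 were 3.48 for ARID1B, 6.58 for FOXP1, and 3.27 for TCF7L2, and 3.65, 4.53, and 3.50 at E18.5.

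**Figure D2:**
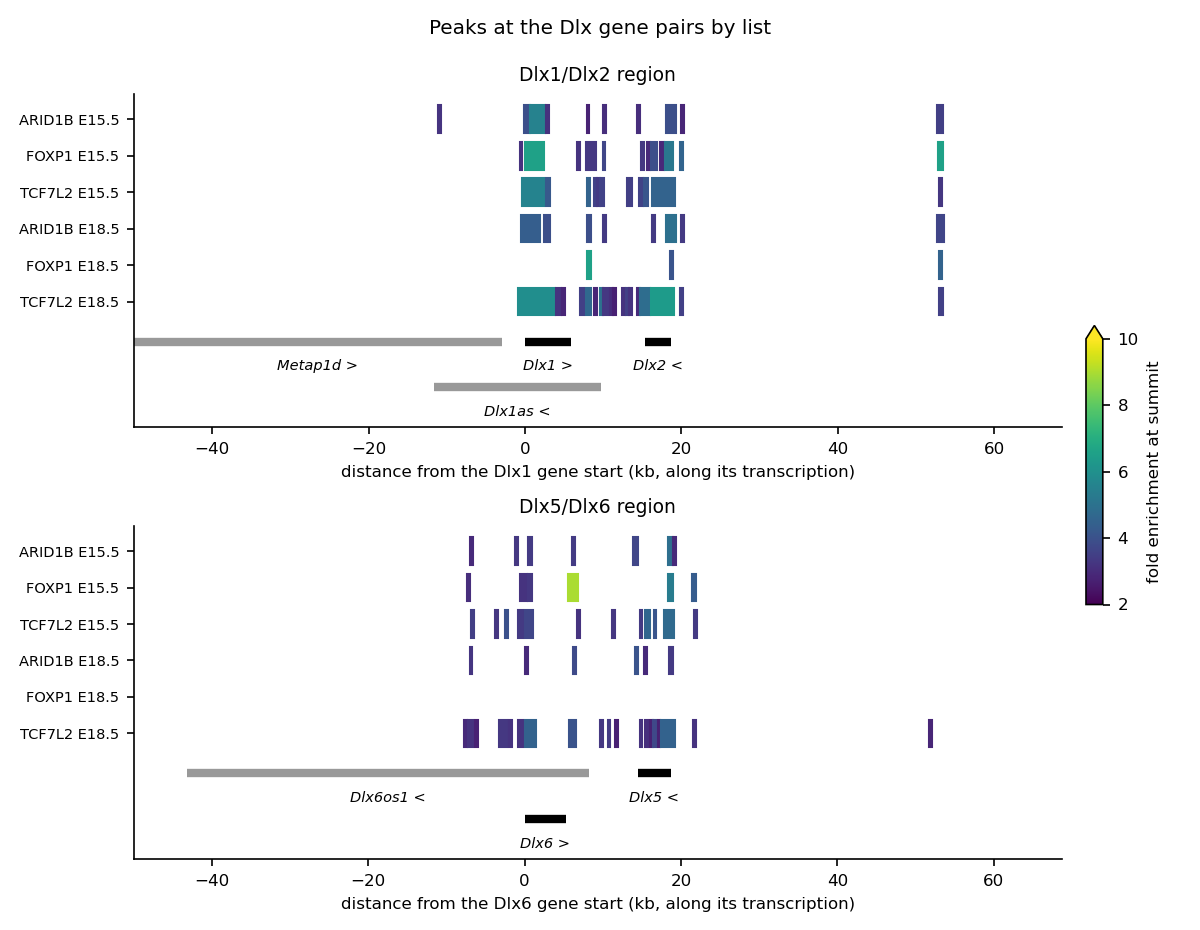
Peaks in the Dlx1/Dlx2 and Dlx5/Dlx6 regions, one row per list, placed by distance in kb from the start of Dlx1 or Dlx6 and colored by fold enrichment at the summit. Bars show peaks to scale except that the narrowest are widened to stay visible, and gene bodies below are black for members and grey for neighbors, with arrowheads for the direction of transcription. Peaks gather over the genes and between them, TCF7L2 at E18.5 has the most (18 and 19), and FOXP1 at E18.5 has 3 at Dlx1/Dlx2 and none at Dlx5/Dlx6.

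Gsx2, Nkx2-1, and Lhx6, the patterning factors and the postmitotic factor of medial interneurons, had few and low promoter peaks. Gsx2 had 2.66 for FOXP1 at E15.5 (interval 1.67 to 4.04), 2.95 for ARID1B at E18.5, and 3.28 for TCF7L2 at E18.5, and at most 4.13% of the genes bound in these lists had lower values. The other 3 lists had none at its promoter. Over the gene itself, with summits beyond the TSS and outside the promoter as counted, TCF7L2 at E18.5 had 4.16 and FOXP1 at E15.5 had 3.29. Away from the gene, the Gsx2 upstream locus (chr5:75067164-75067665) had 3.75, 6.08, and 3.47 for ARID1B, FOXP1, and TCF7L2 in the E15.5 lists and 3.23, 4.82, and 3.28 in the E18.5 lists. A locus in an intron of the neighbor Chic2 (chr5:75030258-75030820) was mainly one of ARID1B, with 7.57 in the E15.5 lists and 8.70 in the E18.5 lists (interval 6.68 to 11.13), while FOXP1 had 4.43 at E15.5, TCF7L2 2.63 at E18.5, and the other 2 lists no peak.

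At Lhx6 and Nkx2-1 the own promoter was bound by TCF7L2 at E18.5 alone. The Lhx6 promoter peak had 3.28 (interval 2.24 to 4.67, 29 reads) and that of Nkx2-1 3.17 (interval 2.15 to 4.54, 28 reads), where the lowest value in this list was 2.41. Neither remained when each list was reduced to the 24872 peaks of the shortest one. Elsewhere in the Nkx2-1 region there was 1 locus at E15.5, the Nkx2-1 upstream window, with 4.18 for FOXP1 (interval 2.90 to 5.84) and 2.95 for TCF7L2, and ARID1B had no peak in the region at either stage. Inside Lhx6, TCF7L2 peaks of 3.47 in the E15.5 lists and 3.61 in the E18.5 lists shared an intronic locus (chr2:36091331-36092021).

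Promoters of protein-coding neighbors of Lhx6 and Gsx2 gave higher values than those of the 2 members. The promoter shared by Rbm18 and Mrrf, which encodes the mitochondrial ribosome recycling factor, lies 31.2 kb from the Lhx6 start. It had 6.06, 14.05, and 6.40 in the E15.5 lists and 7.01, 8.06, and 8.87 in the E18.5 lists for ARID1B, FOXP1, and TCF7L2. The promoter of Ndufa8, a subunit of respiratory complex I, and Morn5, on the other side of Lhx6, had 5.17, 7.72, and 4.83 in the E15.5 lists and 5.33, 6.74, and 6.02 in the E18.5 lists. Thus 12 of the 17 peaks of the Lhx6 region belonged to these neighbors. The Chic2 promoter in the Gsx2 region had 14.68 for FOXP1 at E15.5 (interval 12.14 to 17.60) and 9.83 at E18.5, the highest FOXP1 values of all member windows at each stage. Erich2 and Erich2os in the Gad1 region had between 4.21 (ARID1B at E18.5) and 5.70 (FOXP1 at E15.5). The remaining genes with promoter peaks of all 3 TRs at a stage were Dlx1as, Dlx6os1, and Gm44094, all within the Dlx clusters and all at E15.5 only.

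Gad1 and Gad2, the genes of GABA synthesis, were bound at their promoters in 6 and 5 lists. Gad1 had own-promoter values of 3.39, 5.44, and 3.79 in the E15.5 lists and 3.51, 4.24, and 4.05 in the E18.5 lists for ARID1B, FOXP1, and TCF7L2. Its strongest locus lay upstream of these promoters, in a Gad1 intron (chr2:70557979-70559907, the printed Gad1 intron window). There the 3 TRs had 4.64, 6.83, and 4.52 in the E15.5 lists and 5.47, 5.71, and 5.14 in the E18.5 lists. The FOXP1 value of 6.83 had an interval of 5.15 to 8.90 and that of 5.71 lies inside it. Gad2 had 4.01, 3.54, and 3.27 at E15.5 and 5.05 for ARID1B and 4.05 for TCF7L2 at E18.5, with no FOXP1 peak. The highest, of ARID1B at E18.5, had its summit 1988 bp upstream of the TSS (interval 3.56 to 6.97, 35 reads), at the outer end of the promoter. A TCF7L2 peak at E15.5 with its summit 116 bp downstream of another Gad2 TSS had 4.73 and lies outside the promoter as counted. Further intergenic loci beyond the 3′ end of Gad2 also held peaks of more than 1 TR. That at chr2:22721812-22722277 had 4.56 for FOXP1 in the E15.5 lists and 4.68 in the E18.5 lists, the only FOXP1 peak of the Gad2 region at E18.5.

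**Figure D3:**
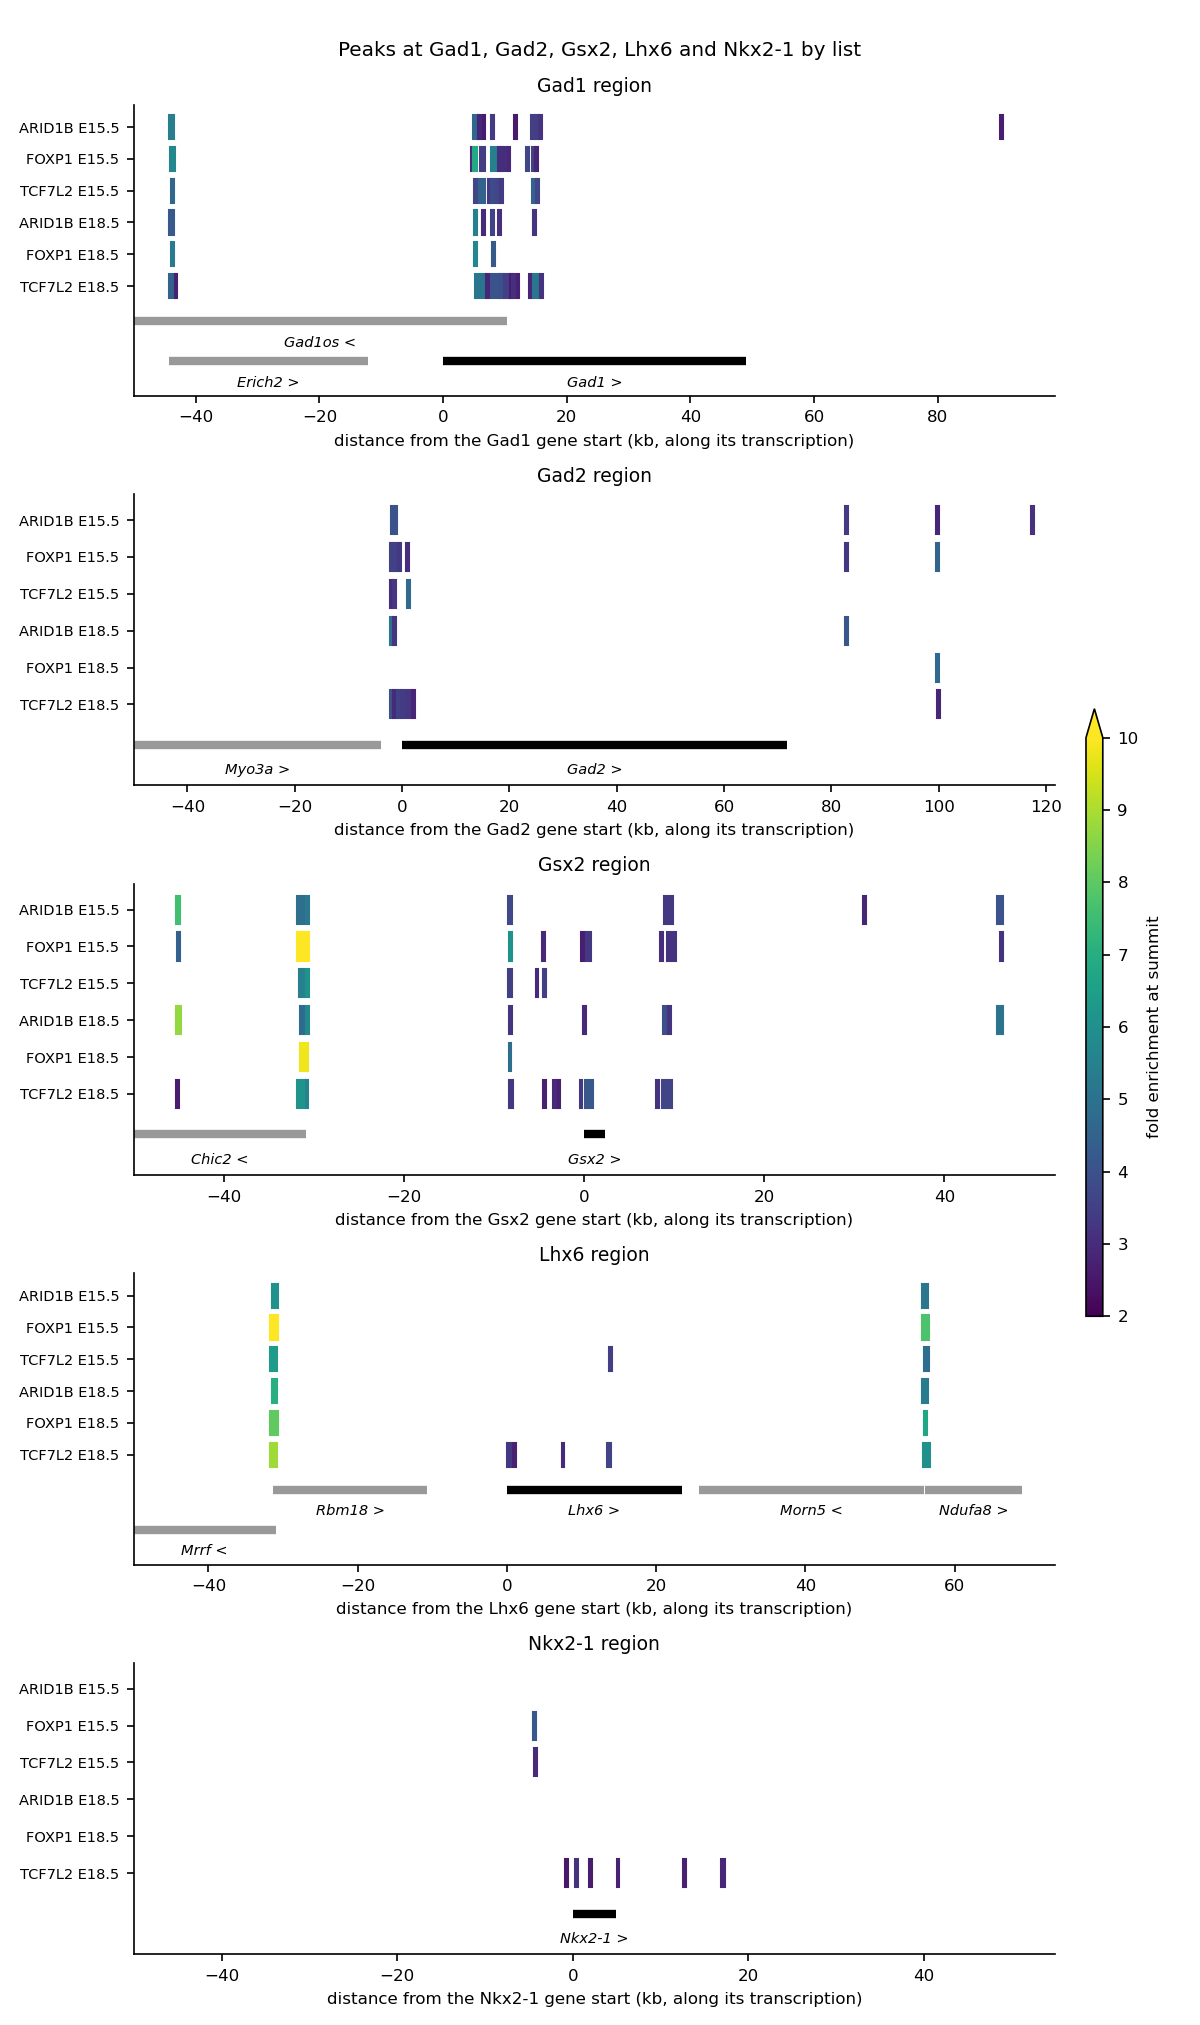
Peaks in the Gad1, Gad2, Gsx2, Lhx6, and Nkx2-1 regions, one row per list, placed by distance in kb from the start of the member gene and colored by fold enrichment at the summit, with member genes in black and neighbors in grey below. Peaks cover the first part of Gad1 and the start of Gad2, the brightest bars stand at the start of Chic2 and between Rbm18 and Mrrf, and Nkx2-1 has 8 peaks, of which 6 are of TCF7L2 at E18.5.

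Set against all genes, the median member had a larger share of bases under peaks near its start sites in 5 of the 6 lists, although the peaks were low. Within 5 kb of any of its own TSSs, a member had a median of 11.34% of bases under ARID1B peaks, 11.88% under FOXP1 peaks, and 17.43% under TCF7L2 peaks at E15.5. The medians over all protein-coding genes were 3.83%, 5.03%, and 3.18%. At E18.5 the members had 6.74% for ARID1B, 0% for FOXP1, and 31.57% for TCF7L2, and all genes 3.31%, 2.4%, and 4.52%. Dlx1 and Dlx2 were the most covered, with 48.56% and 49.41% for TCF7L2 at E18.5, a level reached by 0.56% and 0.51% of genes. For TCF7L2 at E15.5, Dlx2 had 43.39%, reached by 0.246% of genes. At the low end of the same 2 lists, Lhx6 had 2.04% in the E15.5 lists and 7.12% in the E18.5 lists, and Nkx2-1 1.96% and 9.46%.

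**Figure D4:**
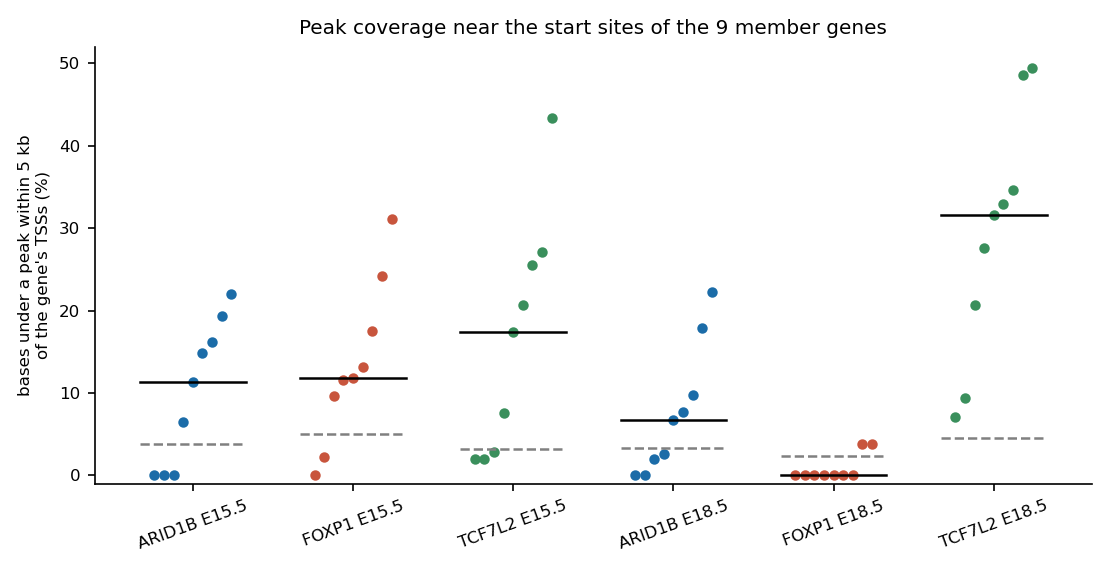
Percent of bases within 5 kb of a gene's TSSs that lie under a peak (vertical axis) for the 9 member genes in each list, sorted from low to high, with the median of the members as a black line and of all protein-coding genes as a dashed line. The members' median lies above the dashed line in 5 lists, at 31.57% against 4.52% for TCF7L2 at E18.5, and at 0% against 2.4% for FOXP1 at E18.5.

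Single peaks over Dlx1 and Dlx2 were among the widest of their lists. The TCF7L2 peak over the Dlx1 promoter at E18.5 ran for 4768 bp, and 0.0527% of the peaks in its list were as wide, although 17.9% were as high. That over Dlx2 ran for 2970 bp, and 0.532% were as wide and 15.1% as high. At E15.5 the TCF7L2 peaks over Dlx2 and Dlx1 were 2950 and 2808 bp wide, which 0.285% and 0.391% of the list reached. The widest member peaks of ARID1B (1810 bp) and FOXP1 (2431 bp) at E15.5 also covered the Dlx1 promoter, with 2.0% and 1.36% of their lists as wide. Most other member peaks were narrow, and the median width over all 258 was 381 bp, against 458 bp over all peaks. Their median fold enrichment was 3.47, against 4.10 over all peaks.

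The density of peaks in the windows was above that of the median gene for most members in 5 of the 6 lists. Per 100 kb of gene body and flanks, the members had median counts at E15.5 of 6.71 (ARID1B), 6.71 (FOXP1), and 6.04 (TCF7L2), against 3.11, 3.17, and 1.87 over all protein-coding genes. At E18.5 the medians were 5.70, 1.62, and 10.75, against 2.96, 1.68, and 2.73. The members above the median of all genes numbered 6, 7, and 7 in the E15.5 lists and 6, 4, and 9 in the E18.5 lists. The windows of Dlx1 and Dlx2, and of Dlx5 and Dlx6, are nearly the same, so each pair counts the same peaks again.

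Between the stages, the number of peaks in the windows fell from 49 to 11 for FOXP1 and from 40 to 34 for ARID1B and rose from 44 to 80 for TCF7L2. The ratios of E18.5 to E15.5 were 0.22, 0.85, and 1.82, and over whole lists they were 0.39, 0.96, and 1.61. The counts in the windows also changed with list length. With every list reduced to the 24872 peaks of lowest p-value, the windows held 12 FOXP1 peaks from E15.5 and 11 from E18.5, 9 and 8 ARID1B peaks, and 25 and 20 TCF7L2 peaks, so the rise of TCF7L2 turned into a fall. With −log10 p of at least 15 instead, TCF7L2 had 4 and 14, of 12672 and 16559 in the whole lists, and FOXP1 had 12 and 4, of 25571 and 9998. Of the 49 FOXP1 peaks at E15.5, 30 (61.2%) reached the lowest fold enrichment that the E18.5 list holds, against 80.4% of all FOXP1 peaks at E15.5.

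Merging overlapping peaks of all lists gave 87 loci in the windows. Of these, 10 (11.5%) had a peak in all 6 lists, against 17.7% of the 93916 loci over the main chromosomes. A further 45 (51.7%) had one in 1 list, against 32.3%, and this list was TCF7L2 at E18.5 for 31 of them (35.6% of the 87 loci, against 7.08%), ARID1B at E15.5 for 6, TCF7L2 at E15.5 for 5, and FOXP1 at E15.5 for 3. The 31 loci of TCF7L2 at E18.5 alone had low peaks, with fold enrichments between 2.52 and 3.50. The median of that list was 3.50 and its lowest value 2.41. Peaks of both stages met at 41 loci (47.1%, against 65.0%). The 10 loci of all 6 lists were 3 at Dlx1/Dlx2, 3 at Gad1, 2 at Lhx6, and 2 at Gsx2. Both at Lhx6, 1 at Gsx2, and 1 at Gad1 are the neighbors' promoters described above. When the peaks of each stage were merged separately, 18 of 64 loci (28.1%) at E15.5 had all 3 TRs, against 30.1% over the main chromosomes. At E18.5, 10 of 82 loci (12.2%) had all 3, against 22.9%, and 69.5% had 1 TR, against 55.2%. Without the FOXP1 list, ARID1B and TCF7L2 shared 25 of 83 loci at E18.5 (30.1%), against 42.9% over the main chromosomes.

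**Figure D5:**
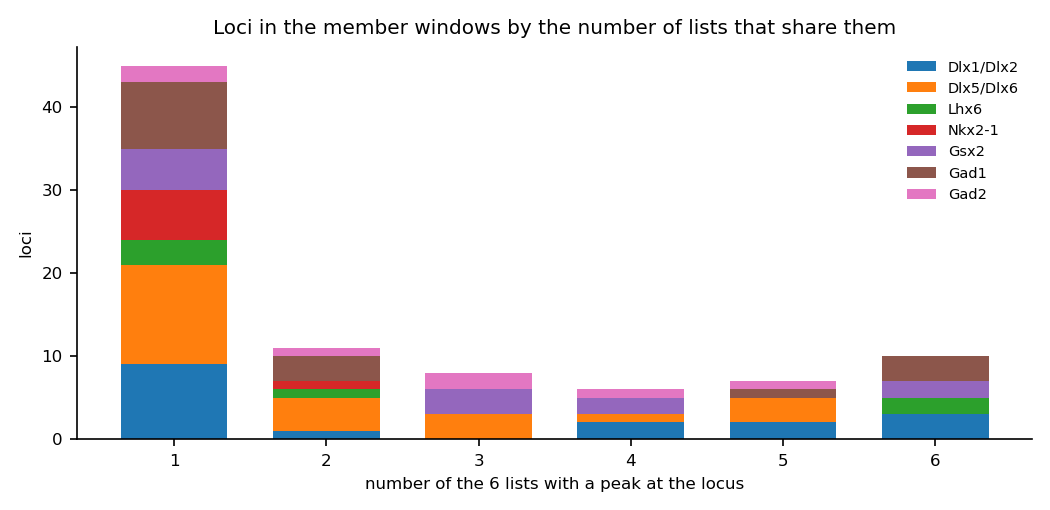
Number of loci in the member windows (vertical axis) by how many of the 6 lists have a peak there (horizontal axis), stacked by region. The counts are 45, 11, 8, 6, 7, and 10 from 1 list to 6 lists, and every locus of all 6 lists is in the Dlx1/Dlx2, Gad1, Lhx6, or Gsx2 region.

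In base composition, the member genes were rich in CpG. Within 5 kb of their TSSs, the ratio of observed to expected CpG was 0.45 in the median member, against 0.44 and 0.41 in the median gene of the glutamatergic and the other interneuron list and 0.26 over all protein-coding genes, with the highest value at Dlx2 (0.53, reached by 1.05% of genes) and the lowest at Gsx2 (0.36, reached by 11.6%). In the 100 bp on either side of summits, the median ratio was higher in member peaks than in all peaks of the list in all 6 lists, for example 0.52 against 0.38 for TCF7L2 at E18.5 and 0.68 against 0.31 for ARID1B at E18.5. Among peaks away from promoters, it was 0.59 in the windows against 0.32 over the whole list for TCF7L2 at E15.5, and 0.52 against 0.25 for ARID1B at E18.5. Among promoter peaks it was lower in the windows in 4 of the 6 lists, for example 0.64 against 0.73 for FOXP1 at E15.5, and higher for ARID1B (0.75 against 0.71) and FOXP1 (1.02 against 0.82) at E18.5. The part of base composition in the breadth or number of peaks was not tested.

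The sequence words varied in the same windows. The E-box CATCTG was in 12.5% of the 40 ARID1B summits at E15.5 and 8.82% of the 34 at E18.5, where 28.9% and 28.4% of all summits of these lists had it. For FOXP1 at E15.5 it was in 8.16% against 22.2%, and for TCF7L2 in 4.55% against 17.4% at the earlier and 10.0% against 19.1% at the later stage. FOXP1 at E18.5, with 11 summits, had 18.2% against 14.5%. The other E-box, CAGCTG, was in 25.0% against 19.6% of ARID1B summits at E15.5 and in 29.4% against 19.0% at E18.5. For FOXP1 it was in 18.4% against 16.2% and 27.3% against 13.2% at the 2 stages, and for TCF7L2 in 15.9% against 16.7% and 16.2% against 17.1%. The forkhead word was in none of the 49 and 11 FOXP1 summits of the windows, where 2.91% and 2.29% of all FOXP1 summits had it. The TCF/LEF word was found in 1 of 44 and 1 of 80 TCF7L2 summits, with 2.36% and 2.59% over all. The homeodomain core was in 17.5% of ARID1B summits at E15.5, against 8.70%, and in 11.8% at E18.5, against 8.59%. For FOXP1 it was in 6.12% against 6.5% and in 0% against 2.77% at the 2 stages, and for TCF7L2 in 4.55% against 4.01% and 5.0% against 4.49%. Neighboring summits of different lists share bases, so these shares are not independent between lists.

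Further genes of the interneuron lineage and genes of the glutamatergic lineage were set beside the members. Of 35 other interneuron genes, 30, 32, and 32 had an own-promoter peak of ARID1B, FOXP1, and TCF7L2 in the E15.5 lists and 27, 19, and 32 in the E18.5 lists, and 18 had one in all 6 lists. Sst and Vip, neuropeptide genes of mature interneuron types, had none in any list, where 35.9% of all genes had none. Of 9 glutamatergic genes, all 9 had an own-promoter peak in 5 lists and 7 had one of FOXP1 at E18.5. Their median coverage within 5 kb was 26.2%, 36.83%, and 29.0% in the E15.5 lists and 25.08%, 3.99%, and 40.74% in the E18.5 lists, above the medians of the members in every list. The other interneuron genes had median coverages of 7.9%, 11.04%, and 11.1% in the E15.5 lists and 8.55%, 2.0%, and 23.82% in the E18.5 lists, above the median of all genes in 5 lists and above that of the members for ARID1B and FOXP1 at E18.5. The glutamatergic genes had a median own-promoter fold enrichment of 4.99, 8.86, and 6.61 in the E15.5 lists and 6.03, 5.71, and 6.46 in the E18.5 lists, also above those of the members. The medians of this height for the other interneuron genes were 3.97, 5.32, and 4.94 in the E15.5 lists and 4.49, 5.71, and 5.36 in the E18.5 lists.

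For the 2 members with an own-promoter peak in all lists, the gene of most similar heights was sought among 11218 autosomal genes bound in all 6 lists, by Euclidean distance of the log2 fold enrichments. The nearest to Dlx2 was Usp44, a deubiquitinase, at a distance of 0.31. The nearest to Gad1 was Dapk2, a death-associated protein kinase, at 0.17, with 3.30, 4.94, and 3.68 in the E15.5 lists and 3.37, 4.24, and 3.94 in the E18.5 lists.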

How the data were processed

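As the methods describe, the authors aligned reads with BWA 0.7.15 to GRCm38 (mm10), filtered on mapping quality with SAMtools, and called peaks with MACS2 2.2.7 on merged replicates against input, without a local background. Versions are from the submitters' processing notes. The deposited lists hold the ratio of summit reads to background with a pseudocount of 1 added to each (fold enrichment), −log10 p and −log10 q, and a score derived by the authors' caller from q. The score was not used. Depth and summit reads were solved here from the authors' fold enrichment and −log10 p under a Poisson model, and the solution was tested on simulated data. Genes and TSSs came from GENCODE vM21, in place of the release named in the methods. Overlap means at least 1 base. Bases came from the GRCm38 reference, and every peak end fell within its chromosome. All work used Python 3.11.15 with pandas 2.3.3, scipy 1.17.1, and pysam 0.24.0. The members, the gene lists, and the rules for named genes were chosen with earlier results of these data known. The rules named all members, the neighbors with promoter peaks of all 3 TRs at a stage, list genes without any own-promoter peak, the 3 highest of the other interneuron list, which are not reported here, and the nearest gene in pattern. Alternatives were a stricter p-value, equal list lengths, summits instead of peaks, other flanks, other promoter definitions, and summits within 500 bp. BCL11A and TBR1 were not analysed here.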

Additional observations from a re-analysis of the deposited data

Results flagged for a closer look

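The 2 stages differed in opposite directions for FOXP1 and TCF7L2. The number of peaks in the member windows at E18.5 divided by that at E15.5 was 0.22 for FOXP1 and 1.82 for TCF7L2, and over the whole lists it was 0.39 and 1.61. The number of members with an own-promoter peak changed by -5 for FOXP1 (from 7 to 2) and by 3 for TCF7L2 (from 6 to 9), while the share of all protein-coding genes with one went from 61.8% to 55.0% for FOXP1 and from 57.3% to 61.2% for TCF7L2. The difference was not tested, since each TR and stage has 1 list. At equal list lengths, the direction of TCF7L2 in the windows turned (25 at E15.5 and 20 at E18.5), while FOXP1 had 12 and 11. The members with an own-promoter peak then numbered 5 and 6 for TCF7L2, against 54.9% and 55.7% of all genes, and 4 and 2 for FOXP1, against 54.7% and 55.0%. With −log10 p of at least 15, the windows held 4 and 14 TCF7L2 peaks, of 12672 and 16559 in the whole lists, and 12 and 4 FOXP1 peaks, of 25571 and 9998.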

How the results depend on the processing

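Of 90 alternative counts, 51 stayed within 1.5 times the reported one. With −log10 p of at least 15, the windows held 9 ARID1B, 12 FOXP1, and 4 TCF7L2 peaks in the E15.5 lists and 8, 4, and 14 in the E18.5 lists. The members bound at their promoter then numbered 2, 4, and 1 and 2, 0, and 4, against 43.1%, 55.0%, and 44.6% and 40.1%, 41.7%, and 50.5% of all genes, those with all 3 TRs 1 and 0, against 39.2% and 35.0%, and loci of all 3 TRs 3 and 3. With each list reduced to the size of the shortest, the windows held 9, 12, and 25 peaks at E15.5 and 8 and 20 of ARID1B and TCF7L2 at E18.5, promoters were bound at 2 members for ARID1B at both stages (40.4% and 39.9% of all genes) and 4 for FOXP1 at E15.5 (54.7%), all 3 TRs met at 2 and 1 members (39.6% and 39.0%), and loci of all 3 TRs numbered 7 and 5. A flank of 100 kb gave 72, 84, and 72 peaks at E15.5, 68 and 24 for ARID1B and FOXP1 at E18.5, and 35 and 21 loci of all 3 TRs, whereas a flank of 20 kb gave 5 FOXP1 peaks and 5 loci at E18.5. Leaving out the FOXP1 list at E18.5, chosen after seeing the data, gave 7 members and 25 loci shared by the remaining TRs. These settings change the peaks or bases counted by construction. For the stricter p-value and the equal lengths, the share of loci with all 3 TRs over the main chromosomes was not computed. Summits instead of peaks, other promoter definitions, and summits within 500 bp moved no count by over 1.5 times. No paired analysis was possible because each TR and stage has a single list. Leaving out a replicate was not possible for the same reason.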
